A study of Mus musculus with 6 samples.

Results

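The methylation of 10932 CpG-dense unmethylated tiles was compared between naive B cells of Tet2 knockout and wild-type mice, to find whether any of them gained methylation. The genome was divided into fixed 1 kb tiles, and a tile was kept when it held at least 30 cytosines measured in all 6 libraries and had a methylation level under 10% as the mean of the 6 libraries. Of 108943 tiles with at least 3 such cytosines, 11523 held 30 or more, and 10932 of these (94.9%) lay under 10%. They carried 669005 of the 1457048 cytosines measured in every library, or 45.9%. Members were thus chosen by their measured methylation in all 6 libraries and by their number of cytosines, so the low level itself is a description and carries no test. The difference between genotypes was not itself used by the rule. The KO libraries enter the mean, however, so a tile with a large enough gain is no member.

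The libraries are enhanced reduced representation bisulfite sequencing (ERRBS), in which restriction fragments rich in CpG are sequenced after bisulfite has turned unmethylated cytosines into T. They come from naive B cells of mouse spleens of the strain C57BL/6, 3 labelled TET2 Knock-Out (KO 1 to 3) and 3 labelled wild type (WT 1 to 3). The labels give no age, no sex, no driver or allele of the deletion, and do not say whether each library is a separate mouse, so the tests rest on the spread of these 6 libraries, which may in part be technical. The design text names germinal centre B cells, but the title and the label of each sample name naive B cells. Coverage summed over cytosines ran from 168455105 to 207065050 per library, where a read counts once for each cytosine it covers. As a check of the labels, 6 cytosines within Tet2 (chromosome 3, 133486189 to 133486297) had 28 to 71 reads in every WT library and were listed in no KO library. A cytosine is listed only with 10 or more reads.

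Such tiles are the kind of DNA found in CpG islands, though islands were not called from sequence here. CpG islands are short regions where CpG dinucleotides have escaped the loss that methylated CpGs suffer over evolution, and they hold the start sites of most housekeeping genes and of many developmental regulators. They are kept free of methylation by CXXC proteins, histone H3 lysine 4 methylation and active transcription, while TET dioxygenases oxidise 5-methylcytosine that is placed there. Loss of TET2 function is a frequent event in blood cancers, where gain of methylation at islands is one of the effects looked for. Bisulfite reads 5-methylcytosine and 5-hydroxymethylcytosine alike as C.

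The start regions of 5 member genes and of 1 gene in a methylated tile show what the tiles look like as sequence. Each is the RefSeq window of GRCm38.p6 from 250 bases before to 50 bases after the gene start, written 5′ to 3′ on the gene's strand, with every CpG in capitals.
Tet2: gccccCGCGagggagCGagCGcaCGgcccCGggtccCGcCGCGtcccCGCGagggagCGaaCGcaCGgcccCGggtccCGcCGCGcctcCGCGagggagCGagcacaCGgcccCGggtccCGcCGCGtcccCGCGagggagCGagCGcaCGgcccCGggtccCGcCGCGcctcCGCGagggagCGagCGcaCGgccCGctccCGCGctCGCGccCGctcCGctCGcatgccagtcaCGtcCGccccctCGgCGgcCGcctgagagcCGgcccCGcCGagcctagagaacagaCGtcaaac
Sec24c: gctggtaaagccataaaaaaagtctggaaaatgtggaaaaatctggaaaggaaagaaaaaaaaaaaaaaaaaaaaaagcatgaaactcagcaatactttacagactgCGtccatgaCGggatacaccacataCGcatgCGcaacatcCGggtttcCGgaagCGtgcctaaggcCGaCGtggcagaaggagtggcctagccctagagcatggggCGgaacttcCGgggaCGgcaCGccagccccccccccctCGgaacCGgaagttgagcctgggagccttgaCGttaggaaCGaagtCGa
Mzf1: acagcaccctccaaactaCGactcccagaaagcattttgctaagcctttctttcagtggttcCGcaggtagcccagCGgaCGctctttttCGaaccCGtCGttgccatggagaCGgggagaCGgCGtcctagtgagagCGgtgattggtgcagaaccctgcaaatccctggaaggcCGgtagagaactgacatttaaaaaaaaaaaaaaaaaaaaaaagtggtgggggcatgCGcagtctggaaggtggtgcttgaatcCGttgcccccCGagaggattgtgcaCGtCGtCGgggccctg
Zbtb42: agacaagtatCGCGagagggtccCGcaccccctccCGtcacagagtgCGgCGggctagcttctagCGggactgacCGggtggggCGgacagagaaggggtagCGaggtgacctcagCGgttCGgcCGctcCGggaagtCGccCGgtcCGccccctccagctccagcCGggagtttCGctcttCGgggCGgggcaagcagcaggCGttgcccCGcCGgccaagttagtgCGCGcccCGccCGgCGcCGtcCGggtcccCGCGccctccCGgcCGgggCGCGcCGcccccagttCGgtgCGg
Ntn3: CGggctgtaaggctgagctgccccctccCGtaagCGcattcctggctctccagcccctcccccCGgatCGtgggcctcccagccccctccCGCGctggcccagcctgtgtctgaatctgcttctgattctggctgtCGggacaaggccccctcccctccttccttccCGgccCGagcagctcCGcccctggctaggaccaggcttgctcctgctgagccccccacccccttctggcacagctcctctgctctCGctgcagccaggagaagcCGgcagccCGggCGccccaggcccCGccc
Zap70: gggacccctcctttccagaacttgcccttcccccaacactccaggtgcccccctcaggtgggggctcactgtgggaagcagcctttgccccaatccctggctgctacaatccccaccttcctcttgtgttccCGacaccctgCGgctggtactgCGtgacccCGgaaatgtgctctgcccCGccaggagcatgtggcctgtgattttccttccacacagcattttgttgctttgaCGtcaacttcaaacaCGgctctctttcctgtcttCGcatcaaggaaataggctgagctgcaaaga
The Tet2 window (chr3:133544341-133544640, minus strand) is shown because it belongs to the deleted gene, and it holds 57 CpGs. The Sec24c window (chr14:20674071-20674370, plus strand, 18 CpGs) belongs to the start tile with the lowest adjusted p in the comparison of genotypes below. The Mzf1 window (chr7:13054576-13054875, minus strand, 18 CpGs) belongs to a tile chosen for the size of its gain, and the window itself held no gain. Neither tile was called when all libraries were used. The Zbtb42 window (chr12:112678590-112678889, plus strand, 40 CpGs) and the Ntn3 window (chr17:24209338-24209637, minus strand, 16 CpGs) show a difference outside and inside the start region. The Zap70 window (chr1:36761548-36761847, plus strand) is the contrast: it holds 8 CpGs, and its tile of 3 measured cytosines, which is no member, was methylated at 88.0%.

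Over the whole set the start windows differed in the same direction. Members were chosen for many measured cytosines, so their higher CpG number and GC content are favoured by the rule and carry no test. The 6592 start windows in member tiles held a median of 27 CpGs and 66.7% G and C, against 13 CpGs and 56.3% over all 21238 protein-coding start windows in the table and 6 CpGs in the 655 windows of tiles at 70% or above. The GC box GGGCGG, the site of Sp1 family factors, occurred on either strand in 78.6% of member windows and 46.2% of all windows. The ETS core CCGGAA occurred in 30.4% against 18.7%, the E box CACGTG in 10.7% against 7.84% and the cyclic AMP response element TGACGTCA in 3.44% against 2.24%. The TATA box TATAAA went the other way, with 4.40% of member windows against 12.6% of all windows, as did the CCAAT box CCAAT, with 33.0% against 38.2%. Of these letters only CCAAT and TATAAA hold no CpG, so membership by CpG number favours the other motifs by construction. No motif contains another, both strands were searched, and a match of letters is not a bound site.

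Gene starts dominated the set. A listed protein-coding start lay in 5580 tiles (51.0%), a gene boundary without such a start in 1402, the inside of a gene in 3266 and no protein-coding gene in 684. A boundary is either end of a gene's span, irrespective of strand, so it can be a start that is not listed. The 5580 tiles carried the starts of 5793 of the 17492 protein-coding genes in the promoter table, and 385 tiles carried starts of 2 or more genes. Adjacent members were joined into 8774 islands, of which 6815 were 1 tile long, 1781 were 2 tiles and 178 were longer. The longest, of 5 tiles and 336 cytosines, lay at Bahcc1 on chromosome 11 (120233001 to 120238000). The X chromosome held 201 members.

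Most members were close to free of methylation. Of the 10932, 4103 had a 6-library level under 0.2%, 3676 lay from 0.2 to 1%, 1212 from 1 to 2%, 1378 from 2 to 5% and 563 from 5 to 10%. The lowest was a tile at a boundary of Phf6, a chromatin protein gene mutated in leukaemia. It had a level of 0% in KO 1, KO 2, KO 3 and WT 3, 0.0955% in WT 1 and 0.0607% in WT 2. Next came the start tiles of Sumo2, a small protein modifier, and of Slc7a6os. The highest was the start tile of Foxa3, a forkhead factor of liver and gut, with 9.71%, 10.1% and 9.58% in KO and 9.54%, 11.7% and 9.19% in WT, followed by a tile 156 kb from Gm46320 and one inside Auts2, a neurodevelopmental gene. Just inside the threshold of 10% lay Foxa3 at a mean of 9.98% and the Gm46320 tile at 9.94%, and just outside lay a tile beside Tril at 10.002% and one at Dpysl4 at 10.009%. At the threshold of 30 cytosines, 318 members had exactly 30, and 324 tiles with 29 cytosines also lay under 10%.

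Around gene starts the cytosines of member tiles formed a trough in both genotypes. In the 200 bases after the start the mean level was 0.535% ± 0.0439 in KO and 0.484% ± 0.0131 in WT (SD, n = 3, over 132822 cytosines). From 1400 to 1600 bases downstream it was 2.70% ± 0.122 in KO and 2.47% ± 0.0960 in WT, over 3176 cytosines. Upstream it reached 2.74% ± 0.0831 in KO and 2.69% ± 0.0228 in WT between 800 and 600 bases before the start. The KO minus WT difference was 0.0507 points in the first of these bins and 0.233 points in the second. The lowest bin was the 200 bases before the start, where KO stood at 0.524% and WT at 0.471%, which is 0.0527 points less. In the first 200 bases KO 3, at 0.498%, lay next to WT 1, at 0.495%.

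**Figure D1:**
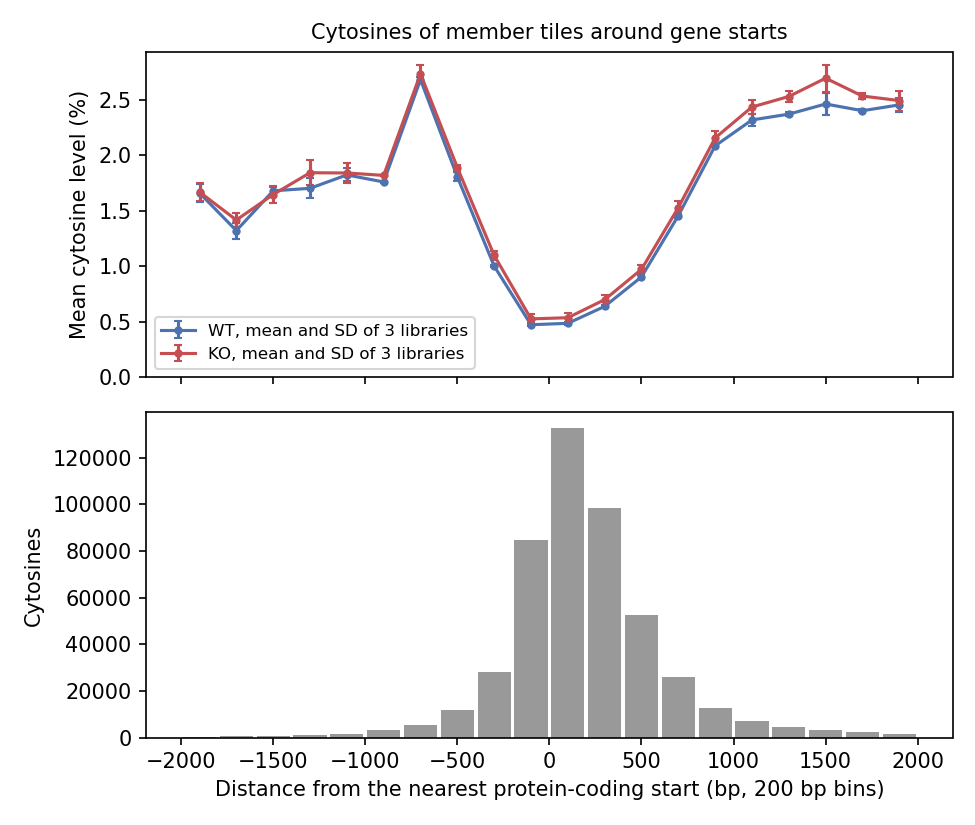
Mean methylation of cytosines in member tiles by distance from the nearest protein-coding start in 200 bp bins (upper panel, percent, mean and SD of 3 libraries per genotype) and the number of cytosines per bin (lower panel). Both genotypes have the lowest levels at the start, near 0.5%, and the KO line runs above the WT line by at most 0.233 points, except from 1600 to 1400 bases upstream.

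No member tile gained methylation past the test, and none lost it. Each tile was tested on its C and T reads with a quasi-binomial model whose overdispersion was moderated with limma, with Benjamini-Hochberg adjustment over all 108802 tiles tested, and a call needed an adjusted p under 0.05 and no minimum difference. Of all tiles 0.13% were called higher in KO (141 tiles) and 0% lower. Of the 10932 members, 0 were called higher and 0 lower, and the lowest adjusted p was 0.0587. At an unadjusted p under 0.05, 696 members (6.37%) were higher and 111 (1.02%) lower, against 5.74% and 1.46% of all tiles. Leaving out 1 library gave 502 to 988 higher and 98 to 207 lower, the 207 without KO 2. edgeR and limma on log2 ratios called 0 of all tiles, so their 0 members carry no further information. With edgeR an unadjusted p under 0.05 was reached by 512 members upward and 130 downward, and with limma by 482 and 102. Without KO 3 the same model called 6 members higher, at Sec24c, Tnks2, Gpatch3, Grrp1, Erlin2 and Pigyl. Without KO 1 it called 2 higher (Proser2 and the Zfp947 tile) and 2 lower (Rrs1 and Pdlim1), and without WT 3 it called 1 higher (Vcpkmt). These counts are to be read against all tiles called in the same settings. Those were 147 of 108755 without KO 3, 105 of 108747 without KO 1 and 92 of 108734 without WT 3.

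The bound on an undetected change was narrow. The median difference, KO minus WT of the pooled reads, was 0.0432 percentage points in members and 0.176 points over all tiles. Differences ran from -0.232 points at the 5th to 0.542 points at the 95th percentile of members, and the 99th percentile was 1.15 points. The upper end of the 95% interval of the difference lay under 1 point in 9759 members (89.3%), under 2 points in 10722 (98.1%) and under 10 points in all 10932. A gain of 5 points lay within the interval of only 2 members, the tiles at Vcpkmt (upper end 8.17 points) and Mtus1 (5.73 points), whose libraries vary widely within each genotype. A loss of 10 points lay within the interval of 1 member, at Rrs1. The intervals hold for each tile singly, and the limit of 10% on the 6-library mean restricts the gain that a member can show.

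**Figure D2:**
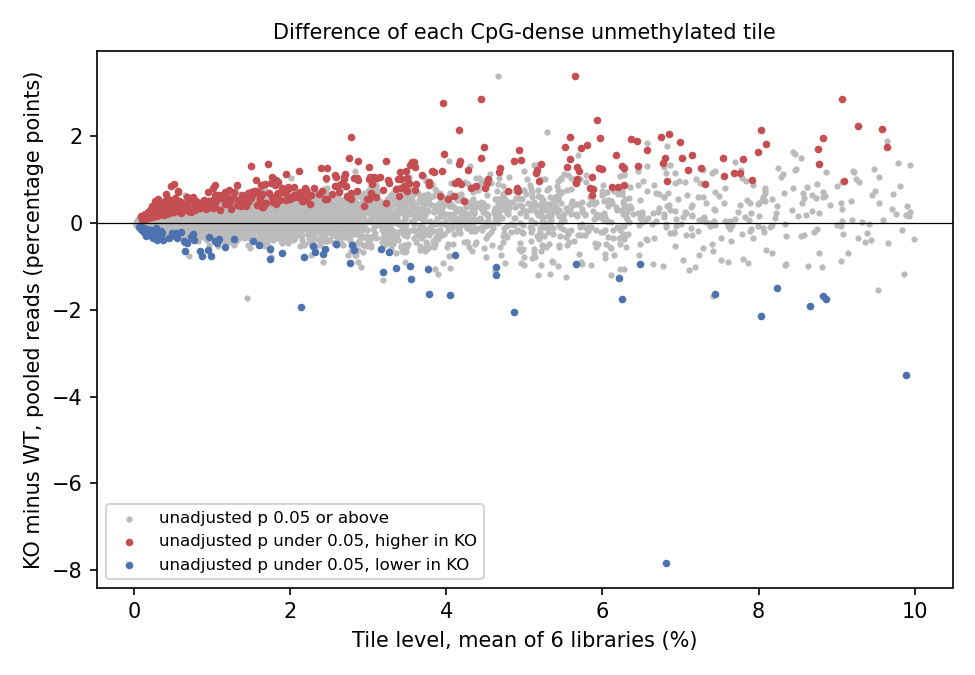
KO minus WT difference in percentage points (vertical axis) against the 6-library level in percent (horizontal axis), 1 point per tile, with tiles at an unadjusted p under 0.05 in colour. The points widen with the level, no tile rises by more than 3.38 points, and the lowest point is the Rrs1 tile at -7.84 points.

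Islands and single cytosines were tested too. Since 6815 islands are single tiles, the first test largely repeats that of tiles, and since a cytosine call needs 10 points, the 79.0% of member cytosines under 1% could not reach one. None of the 8774 islands was called in either direction (0.132% of islands and other tiles were called higher), and the lowest adjusted p was 0.0591. An unadjusted p under 0.05 was reached by 597 islands upward (6.80%, against 5.76% of islands and other tiles) and 84 downward (0.957%, against 1.46%). Of the 382335 member cytosines with at least 1 C read, 0 were called at an adjusted p under 0.05 and at least 10 points, where 8 of 1095119 cytosines over all tiles were (0.000731%). At an unadjusted p under 0.05, 13424 member cytosines (3.51%) were higher and 10158 (2.66%) lower, against 5.31% and 3.17% of all cytosines tested. The lowest adjusted p among member cytosines was 0.335. Leaving out KO 3 gave 7 islands called higher, leaving out KO 1 gave 2 higher and 2 lower islands and 5 lower cytosines, and leaving out WT 3 gave 1 island called higher.

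To ask whether any island crossed from unmethylated to methylated, the 10943 CpG-dense tiles with a WT mean under 10% were taken irrespective of KO. In 29 of them the KO mean was 10% or above, and 13 dense tiles crossed in the opposite direction. The largest of the 29 differences was 3.39 points, the lowest adjusted p was 0.107, and KO and WT libraries did not overlap in 4. Complete separation upward was seen in 8.36% of all tiles, and the 29 were picked for a KO mean above WT. Among the 13, the largest difference was -5.07 points, the lowest adjusted p was 0.163, and the libraries did not overlap in 2. None of the 10943 was called. The 5 dense tiles that were called all lay above the threshold, the lowest at 23.8%.

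The mean over all members was slightly higher in KO, with overlapping libraries. It was 1.139%, 1.196% and 1.078% in KO 1 to 3 and 1.079%, 1.037% and 1.052% in WT 1 to 3. KO 1 and KO 2 lay above every WT library, and KO 3 lay just under WT 1. The means were 1.14% ± 0.0593 and 1.06% ± 0.0213 (SD, n = 3), a difference of 0.0815 points (two-sided exact permutation test, p = 0.2, where 3 against 3 libraries cannot go below 0.1). The median tile stood at 0.338% ± 0.0552 in KO and 0.277% ± 0.0197 in WT (exact p = 0.2). Without KO 2 the difference of the means was 0.0523 points. The pooled difference was above 0 in 7207 members (65.9%), against 59.8% of all tiles. Depth differed alongside: the median member tile had 120 reads per cytosine in KO 1, 130 in KO 2 and 144 in KO 3, and 165, 164 and 144 in WT 1 to 3, and its part in the difference was not tested.

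**Figure D3:**
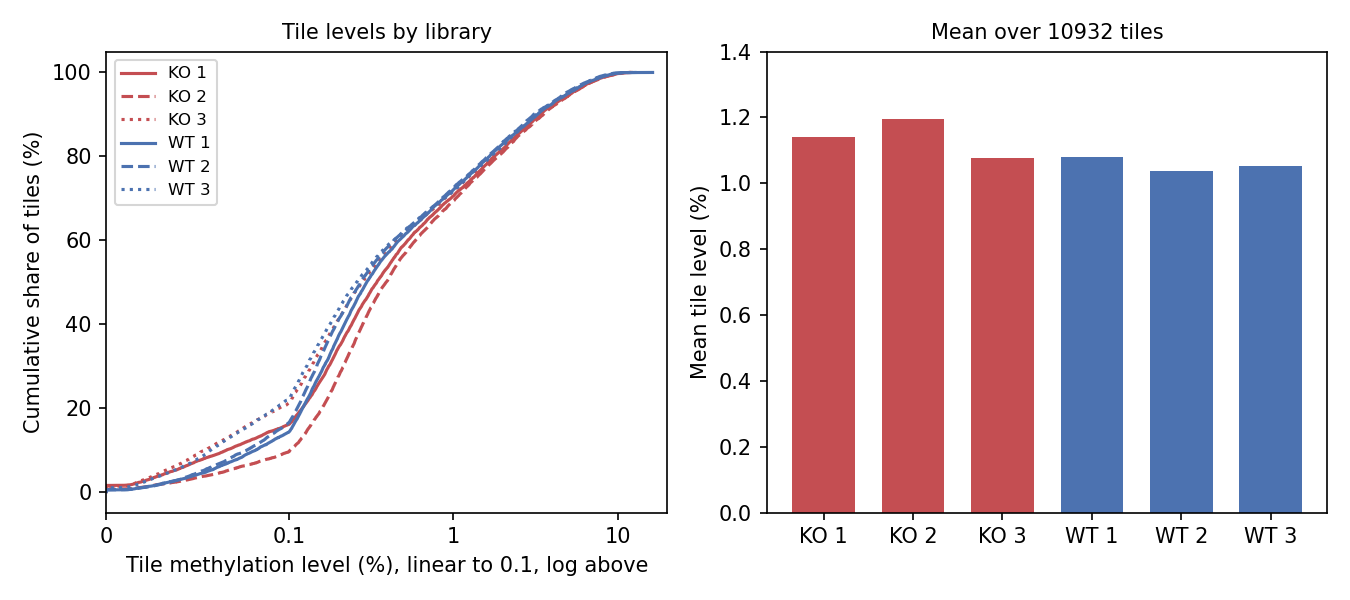
Left, cumulative share of the 10932 tiles (percent) against tile level (percent, linear to 0.1 and logarithmic above) for each library; right, the mean tile level per library (percent). The 6 curves nearly coincide above 1%, and below it KO 2 has the highest levels, with a mean of 1.196%.

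In percentage points, the difference grew with the level of the tile. It was 0.0213 points in tiles under 0.2%, 0.0664 points from 0.2 to 1%, 0.114 points from 1 to 2%, 0.185 points from 2 to 5% and 0.297 points from 5 to 10%. The WT mean was 0.126% in the lowest class and 6.59% in the highest, so relative to WT the difference was smaller in the highest class. In the 3 upper classes every KO library lay above every WT library (exact permutation p = 0.1, the smallest possible), and in the 2 lower classes the genotypes overlapped (p = 0.4 and 0.2). From 5 to 10%, the library means were 6.91%, 6.99% and 6.75% in KO and 6.71%, 6.46% and 6.59% in WT. These classes were cut on the 6-library level, which every library enters with the same weight although depth differed between libraries.

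Edge tiles were more methylated than inner tiles in both genotypes. The 1638 edge tiles, with a measured neighbour tile at 10% or above, had a mean of 1.74% ± 0.0791 in KO and 1.62% ± 0.0350 in WT. The 7102 inner tiles, whose measured neighbours all lay under 10%, had 1.04% ± 0.0545 and 0.962% ± 0.0189. The KO minus WT difference was thus 0.127 points at edges and 0.0745 points inside, and the difference between these, 0.0524 points, separated the libraries completely (exact permutation p = 0.1). Tiles at gene starts differed by 0.0683 points (0.830% against 0.761%) and tiles inside genes by 0.109 points (1.57% against 1.46%), the latter without overlap between the genotypes. At an unadjusted p under 0.05, 8.12% of edge tiles, 6.32% of inner tiles and 5.20% of tiles with no measured neighbour were higher in KO.

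In percentage points, though not by the share of tiles higher in KO, unmethylated tiles with fewer CpGs differed more. The 15323 tiles of 3 to 29 cytosines under 10% had a mean of 2.30% ± 0.0888 in KO and 2.10% ± 0.0315 in WT, 0.204 points apart without overlap (exact permutation p = 0.1). The member difference was smaller than that by 0.122 points, again with complete separation of the libraries (exact permutation p = 0.1). Of the 15182 less dense tiles tested, 5 were called higher (0.0329%), and of the members 0, both below the 0.13% of all tiles.

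**Figure D4:**
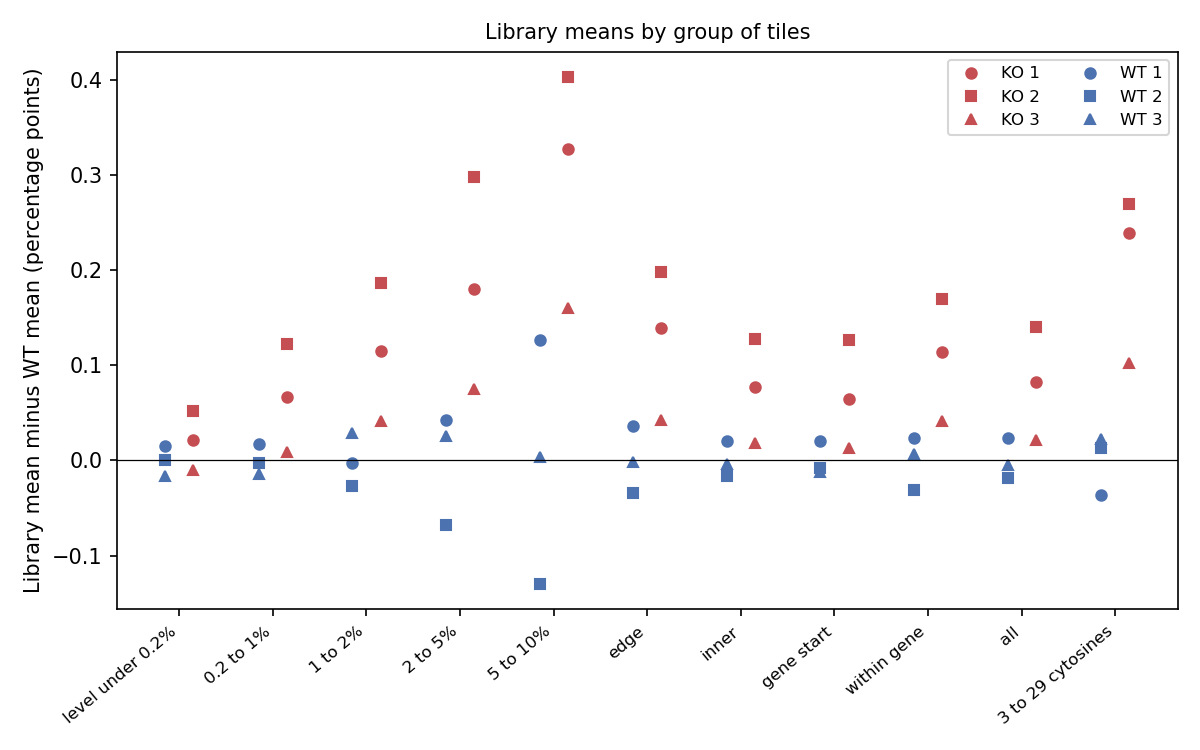
Library means minus the WT mean of the same group of tiles (percentage points, vertical axis) for members by level, position and gene relation, for all members, and for unmethylated tiles of 3 to 29 cytosines; each point is 1 library. KO libraries lie highest from 5 to 10%, where their mean is 0.297 points above WT, and KO 2 is the highest library in every group.

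Split by cytosine, the difference varied with the 6-library level. These classes were cut on the same values that are compared, and KO 1 and KO 2 had fewer reads per cytosine than any WT library. The part of this sorting in the differences below was not tested. Of the member cytosines, 528375 (79.0%) had a 6-library level under 1%, and their means were 0.151% ± 0.0258 in KO and 0.178% ± 0.0132 in WT (SD, n = 3, exact permutation p = 0.2). The 130367 cytosines from 1 to 10% had 3.02% ± 0.132 in KO and 2.64% ± 0.0190 in WT, 0.383 points apart without overlap (exact p = 0.1). The 10263 cytosines at 10% or above, spread over 2425 tiles, had 23.1% ± 0.362 and 22.2% ± 0.286, a difference of 0.907 points, also without overlap (exact p = 0.1). Among them, the 1921 at 30% or above overlapped, with 54.0% ± 0.847 in KO and 53.2% ± 0.704 in WT (exact permutation p = 0.3). At the least methylated cytosines KO 1 and KO 3 lay below and KO 2 lay among the WT libraries.

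The start of Tet2 was unmethylated in KO and WT alike. Its tile (chromosome 3, 133544001 to 133545000, 94 cytosines) had 0.108%, 0.212% and 0.107% in KO 1 to 3 and 0.103%, 0.0911% and 0.103% in WT 1 to 3, a difference of 0.0394 points (adjusted p = 0.925), and 0.00847 points without KO 2. Within the printed start window 61 cytosines averaged 0.114% ± 0.0782 in KO and 0.0784% ± 0.0365 in WT (SD, n = 3).

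The members nearest to a call were 6 tiles, chosen for their p-values after these were seen (near Zfp947, near Strip2, Proser2, Sec24c, Niban3 and Fgf15). All were higher in every KO library than in every WT library. Complete separation in this direction was seen in 909 members (8.32%) and in 8.36% of all tiles. The lowest adjusted p, 0.0587, belonged to a tile of 42 cytosines on chromosome 17 (22081001 to 22082000), 62.4 kb from Zfp947, a zinc finger gene. It had 1.64%, 2.70% and 2.05% in KO and 0.711%, 0.944% and 0.974% in WT, 1.30 points apart. Next was a tile on chromosome 6 (29985001 to 29986000) over the long noncoding gene Smkr-ps, 25.3 kb from Strip2, with 1.01%, 0.911% and 0.852% in KO and 0.0921%, 0.315% and 0.217% in WT (0.699 points, adjusted p = 0.0591). All KO values there lay close together, and 32 of its 43 cytosines were higher in KO. The Zfp947 tile passed with a coverage minimum of 20 (adjusted p = 0.0465), with moderation to a trend (adjusted p = 0.0475) and without KO 1 (adjusted p = 0.0380) in the limma-moderated model. Over its other alternatives the adjusted p reached 0.903, with 0.277 without KO 2 and 0.282 without WT 1. The Strip2 tile passed with moderation to a trend (adjusted p = 0.0481). With tiles shifted by 500 bp, the member called (29984501 to 29985500, adjusted p = 0.0289 in the same model) overlapped it. The adjusted p of the Strip2 tile was 0.273 without WT 1, 0.442 with equal weights for cytosines and up to 0.903 over all alternatives.

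Sec24c, which encodes a cargo-binding subunit of the COPII coat of secretory vesicles, had the start tile with the lowest adjusted p, 0.0956. The tile (chromosome 14, 20674001 to 20675000, 35 cytosines) stood at 0.573%, 1.25% and 0.457% in KO and 0.0844%, 0.0521% and 0.0523% in WT, 0.669 points apart. KO 2 was high and the WT libraries were near 0. Without KO 3 the tile passed (0.863 points, adjusted p = 0.0450), and without KO 2 it stood at 0.443 points (adjusted p = 0.262). The adjusted p was between 0.284 and 0.299 without any 1 WT library and reached 0.903 over all alternatives. In the printed start window, 15 cytosines averaged 0.336% ± 0.143 in KO and 0.0525% ± 0.0484 in WT, so KO lay higher there too, and no cytosine of the tile reached a 6-library level of 10%. A tile at a boundary of Fgf15, a gut hormone that restrains bile acid synthesis, differed by 1.37 points (adjusted p = 0.146). It had 1.70%, 2.21% and 3.20% in KO and 1.22%, 0.992% and 0.936% in WT. With equal weights for cytosines it differed by 0.872 points.

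Complete separation together with an unadjusted p under 0.05 was found in 445 members upward (4.07%, against 4.16% of all tiles) and in 86 downward (0.787%, against 1.03%). The 10 largest such gains lay between 1.75 and 3.38 points, and none was called. In Proser2 (chromosome 2, 6100001 to 6101000, inside the gene, 39 cytosines) the levels were 5.34%, 8.14% and 8.47% in KO and 3.58%, 4.80% and 3.53% in WT, 3.38 points apart (adjusted p = 0.0804). KO 1 was the lowest KO library, close to WT 2, and 31 of the 39 cytosines were higher in KO. Without KO 1 the difference was 4.33 points and passed (adjusted p = 0.0206), whereas without any other 1 library the adjusted p lay between 0.0590 and 0.331. It was 0.382 with equal weights for cytosines and reached 0.903 over all alternatives. Niban3, a gene known from B cells, had a tile of 67 cytosines inside the gene (chromosome 8, 71602001 to 71603000) with 10.4%, 11.7% and 9.93% in KO and 8.81%, 8.36% and 8.32% in WT (2.17 points, adjusted p = 0.107). Its 22 cytosines at 10% or above averaged 30.2% ± 1.14 in KO and 28.4% ± 1.88 in WT (SD, n = 3). With each cytosine weighted equally the tile differed by 1.23 points.

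The tile inside Gabbr1, a subunit of the metabotropic GABA receptor, had 10.5%, 10.7% and 10.3% in KO and 7.99%, 6.47% and 8.47% in WT (2.84 points, adjusted p = 0.339). The tile inside Cacng7, an auxiliary subunit of calcium channels and AMPA receptors, had 7.37%, 5.94% and 7.88% in KO and 4.91%, 4.48% and 5.01% in WT (2.36 points, adjusted p = 0.208). The start tile of Npffr1, a receptor for neuropeptide FF, had 8.58%, 9.92% and 8.68% in KO and 8.12%, 5.73% and 7.17% in WT (2.15 points, adjusted p = 0.547, with 1.25 points at equal weights and 1.43 points without WT 2). Its start window stood at 1.83% ± 0.302 in KO and at 1.73% ± 0.889 in WT over 21 cytosines. The tile inside Lrfn5, a synaptic adhesion gene, differed by 1.75 points (5.42% ± 0.930 against 3.55% ± 0.809) and by 0.938 points at equal weights. One inside Erfl, an ETS factor gene, differed by 1.95 points (9.80% ± 1.18 against 7.85% ± 0.679) and by 1.30 points without KO 2.

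Zbtb42, Mzf1 and Ntn3 are start tiles whose difference can be placed against the printed sequences. Zbtb42, a zinc finger repressor, had 7.85%, 8.74% and 6.97% in KO and 5.08%, 5.94% and 6.51% in WT over 48 cytosines (chromosome 12, 112678001 to 112679000), a difference of 2.04 points (adjusted p = 0.288). With each cytosine weighted equally the difference was 0.770 points. All of it lay in 5 cytosines between bases 61 and 219 of the tile, upstream of the start window, which averaged 64.2% ± 5.46 in KO and 56.7% ± 4.30 in WT. The other 43 averaged 0.247% ± 0.160 and 0.262% ± 0.0744, and the printed window stood at 0.359% ± 0.228 and 0.336% ± 0.0108 over 32 cytosines.

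Mzf1, a zinc finger factor of myeloid cells, had 4.69%, 4.27% and 6.84% in KO and 1.68%, 2.30% and 3.98% in WT over 33 cytosines (chromosome 7, 13054001 to 13055000), a difference of 2.76 points (adjusted p = 0.339). A cluster of 3 cytosines at bases 162 to 167 of the tile, inside the gene, carried 42.7% of the difference at equal weights, with 21.0% ± 8.32 in KO and 6.90% ± 4.19 in WT. Without KO 3 the tile differed by 1.80 points. The printed start window, with 7 measured cytosines, stood at 0% in every KO library and at 0%, 1.18% and 0% in WT 1 to 3.

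Ntn3, a netrin guidance cue, had 7.18%, 6.35% and 6.59% in KO and 4.75%, 4.75% and 5.21% in WT over 38 cytosines (chromosome 17, 24209001 to 24210000), a difference of 1.79 points (adjusted p = 0.229). Here the start window differed as well: its 17 measured cytosines averaged 15.3%, 10.2% and 13.2% in KO and 8.79%, 7.92% and 9.98% in WT. The window is thus above 10% in all KO libraries, although its tile is a member, and KO 2 lay close to WT 3.

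**Figure D5:**
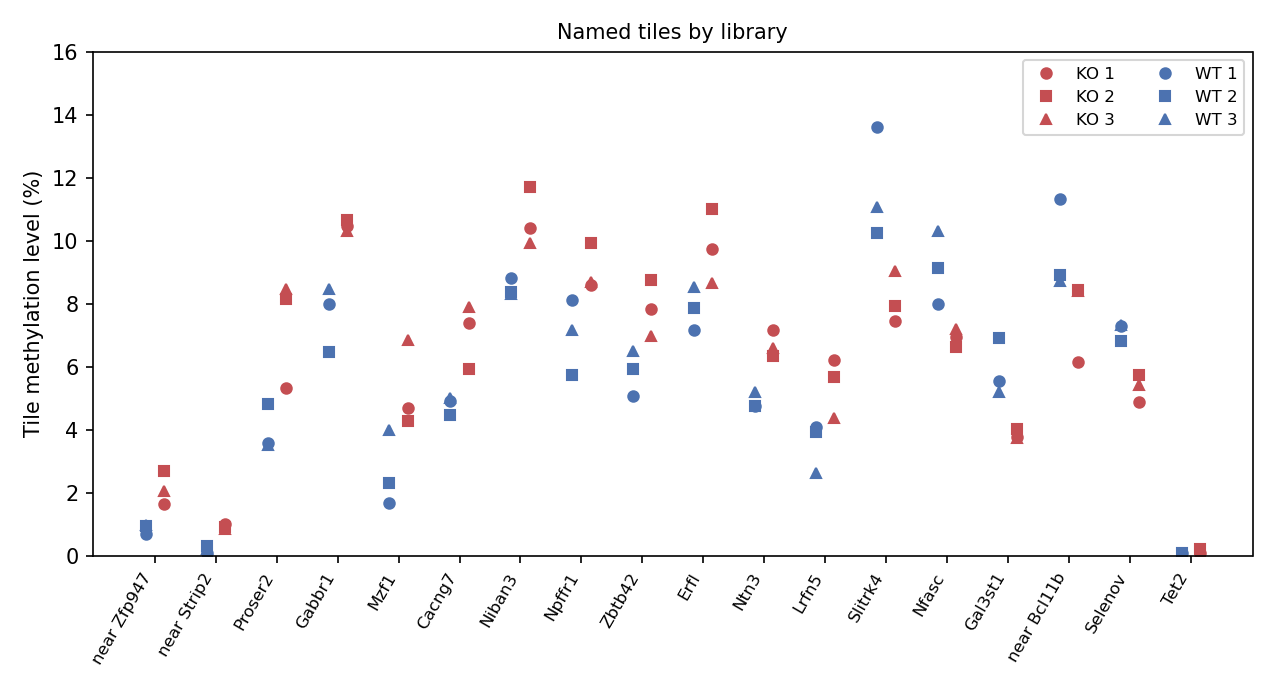
Methylation level (percent) of named tiles in each library, with WT in blue and KO in red and the replicate number as the marker shape; "near" marks a tile outside the gene. From left to right stand the pair of lowest adjusted p, the 10 largest gains from Proser2 to Lrfn5, the 5 largest losses from Slitrk4 to Selenov, and Tet2, and the libraries of the genotypes do not overlap in any of them.

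The 5 largest losses by the same rule lay between -1.75 and -3.50 points. Complete separation downward, at any p, was seen in 259 members (2.37%) and 3.37% of all tiles. Slitrk4, a neuronal membrane protein gene on X (64276001 to 64277000), had 7.46%, 7.93% and 9.03% in KO and 13.6%, 10.3% and 11.1% in WT (adjusted p = 0.319). A tile 0.856 kb from Bcl11b, a factor needed for T cell commitment, had 6.16%, 8.44% and 8.39% in KO and 11.3%, 8.91% and 8.71% in WT, which is -1.92 points from WT to KO (adjusted p = 0.615), with KO 1 and WT 1 apart from the rest and -1.03 points without WT 1. The tile at a boundary of Nfasc, an adhesion gene of axons, differed by -2.14 points, or -0.648 points at equal weights. Its 7 cytosines at 10% or above averaged 38.2% ± 0.515 in KO and 42.2% ± 5.09 in WT (SD, n = 3). The tile inside Gal3st1, which makes sulfatide, differed by -2.05 points (3.85% ± 0.149 against 5.88% ± 0.897). The start tile of Selenov, a selenoprotein gene, differed by -1.75 points (5.35% ± 0.424 against 7.14% ± 0.280), and its start window stood at 3.16% ± 0.380 and 4.05% ± 0.659.

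Since no member was called, no gene list could hold a called tile. The counts by gene group below are of tiles overlapping a gene of the list or 1 kb beside it. Higher and lower there mean an unadjusted p under 0.05, to be read against 6.37% higher and 1.02% lower over all members. Levels set the groups apart more than genotype did. Ribosomal protein genes had 33 tiles with a median level of 0.197% and a median difference of 0.0607 points, 1 higher (Rpl32) and 0 lower. Respiratory and glycolytic enzymes had 24 tiles with a median level of 0.207%, 2 higher and 0 lower. Hox genes, which pattern the body axis and are held silent by Polycomb, had 38 tiles with a median level of 2.99%, a median difference of 0.131 points, 2 higher and 0 lower. The developmental transcription factors had 152 tiles with a median level of 2.61%, a median difference of 0.168 points, 9 higher and 2 lower. The lowest p among the Hox tiles belonged to the start of Hoxd11, with 4.35%, 4.76% and 4.09% in KO and 3.93%, 4.02% and 3.41% in WT (0.616 points, adjusted p = 0.624).

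The B cell identity list had 12 tiles at 9 of its 24 genes, with levels from 0.0788% to 0.836%, 0 higher and 0 lower, and differences from -0.114 to 0.171 points. Its lowest p was a tile inside Pax5, the B lineage commitment factor, with 0.277% ± 0.0470 in KO and 0.163% ± 0.117 in WT. The germinal centre list had 14 tiles, 2 higher and 0 lower. One of these lay inside Ezh2, the histone H3 lysine 27 methyltransferase that germinal centre B cells need, with 0.333%, 0.436% and 0.0213% in KO and 0.0961%, 0.0665% and 0.0107% in WT (adjusted p = 0.600), so KO 3 lay among the WT libraries. The plasma cell list had 6 tiles, 0 higher and 0 lower.

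The lymphoma tumour suppressors and cell cycle inhibitors had 53 tiles at 24 of 31 genes, 6 higher (11.3%) and 0 lower, with a median difference of 0.0695 points and differences from -1.72 to 1.11 points. The lowest p was inside Bcor, a Polycomb corepressor gene on X, with 0.482%, 0.262% and 0.760% in KO and 0.0329%, 0.0982% and 0% in WT (0.494 points, adjusted p = 0.437). Both sides there lay under 1%. Polycomb genes had 41 tiles with 3 higher and 0 lower, and genes of CpG island binding and protection 38 tiles with 2 higher and 0 lower.

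The DNA methylation machinery had 17 tiles at 15 of 25 genes, 2 higher and 0 lower. The start tiles of the methyltransferase genes were near 0: Dnmt1 at 0.224% ± 0.0829 in KO and 0.102% ± 0.0516 in WT, Dnmt3b at 0.117% ± 0.0501 and 0.0656% ± 0.0194 (SD, n = 3). One of the 2 start tiles of Dnmt3a stood at 0.369%, 0.480% and 0.306% in KO and 0.0888%, 0.250% and 0.195% in WT, without overlap (0.210 points, adjusted p = 0.644), and the other at 0.164% ± 0.0288 and 0.113% ± 0.0349. Of the other TET genes, a start tile of Tet3 had 5.56% ± 0.859 in KO and 5.12% ± 0.167 in WT, and a tile inside Tet1 had 0.352% ± 0.0767 and 0.625% ± 0.204, lower in each KO library (adjusted p = 0.776). Uhrf2, a reader of hydroxymethylated DNA, had 2.48% ± 0.495 and 1.91% ± 0.0477 at its start (adjusted p = 0.605).

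Imprinted genes had 11 tiles with 2 higher and 0 lower, and germline genes only 2 tiles with 0 and 0. Genes of other cell types that a spleen B cell preparation could hold had few members: T cell markers 10 tiles (0 higher, 1 lower, the Bcl11b tile), myeloid markers 3 (0 and 1, beside Cebpa), NK cell markers 3 and erythroid markers 4 (0 and 0 in each). As a check of the labelled cell type, 3 of the 10 B cell markers could be matched to a start tile. Those of Ebf1, a B lineage factor, stood at 0.0788% and 8.13% over 6 libraries, that of Pax5 at 0.364% and that of Cd22, an inhibitory B cell receptor, at 34.3%. Of 8 T cell markers 2 were matched, Zap70, a T cell kinase, at 88.0% and Tcf7, a T cell factor, at 2.56% and 12.7%. With so few markers matched, the check of the label is limited. The summed level of the matched start tiles was 47.5 in KO and 38.2 in WT for the 4 of B cell markers and 109 and 97.8 for the 3 of T cell markers. Single tiles of few cytosines carried most of these, Cd22 (4 cytosines) with 38.5 and 30.01 and Zap70 (3 cytosines) with 93.4 and 82.6. The 1 tile of NK cell markers had 1.30 and 1.51, that of erythroid markers 63.9 and 65.0, that of myeloid markers 0.783 and 0.749 and the 3 of plasma cell markers 1.16 and 0.966, and the part of other cells in the differences was not tested.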

How the data were processed

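Bismark and the build GRCm38 are named in the submitters' processing notes; its version and any trimming step are not stated in these sources. Coverage was deposited as an unnormalized read count for each cytosine and strand, and the deposited methylation is the percent of reads with C and with T, per the file headers. Reads with C and T were recovered as coverage times percent. No cytosine had fewer than 10 reads, and no upper limit was set. Reads carry no molecular identifiers, so counts are not independent molecules.

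Tiles were fitted with 1 level per genotype, the Pearson overdispersion (4 residual degrees of freedom) moderated with limma 3.58.1 in R 4.3.3 and held at 1 or above, with an F test and Benjamini-Hochberg adjustment over all 108802 tiles with at least 3 cytosines and a C read. Islands and cytosines were fitted alike. The script was tested on simulated data. For values per library, genotypes were compared by exact permutation, two-sided (scipy 1.17.1). edgeR 4.0.16 was an alternative. Intervals are at 95% and rest on the same spread. Genes, starts and sequences came from RefSeq tables of GRCm38.p6, which are not complete.

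Members and gene lists were chosen with earlier results of these data known. Genes named by rule were Tet2, the 10 largest gains and 5 largest losses with an unadjusted p under 0.05 and complete separation of the genotypes, the 3 highest and 3 lowest levels, and the lowest p of each list; others were chosen after their values were seen. The alternatives were another coverage minimum or upper limit, autosomes alone, other membership limits, shifted tiles, equal weights, other tests, a minimum difference, a replicate block, and each library left out.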

Additional observations from a re-analysis of the deposited data

How the results depend on the processing

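The count of 0 called members stood with an upper coverage limit, autosomes alone, membership of 20 cytosines and equal weights. Membership under 5% or of 50 cytosines and a minimum difference of 2 or 10 points only narrow the main result, so their 0 was fixed in advance. No moderation, edgeR, limma and the replicate block called 0 of all 108802 tiles, so their 0 says nothing of members. The count became 1 higher with a coverage minimum of 20, 1 higher with tiles shifted by 500 bp, and 2 higher with moderation to a trend. Over all tiles, these settings called 172, 144 and 158. Leaving out 1 library gave 0 to 6 member tiles called higher and 0 to 2 lower, where 60 to 147 of all tiles were called. It gave 0 to 7 islands higher and 0 to 2 lower, and 0 to 5 member cytosines lower. A coverage minimum of 20 gave 1 island called higher. The mean difference of members stayed between 0.0523 and 0.112 points without any 1 library. Same-numbered libraries did not deviate together (r of 0.0279, -0.0175 and -0.0105), and the replicate block gave an unadjusted p under 0.05 in 652 members upward and 115 downward. With 3 libraries per genotype the exact test cannot go below 0.1.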

Other observations

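Some members varied far more between libraries than between genotypes. The range over the 6 libraries had a median of 0.372 points and exceeded 5 points in 27 members. The tile at a boundary of Rrs1, a ribosome assembly gene (chromosome 1, 9545001 to 9546000, 49 cytosines), had 10.5% in KO 1, 16.3% in WT 1 and 13.0% in WT 2. The tile stood between 0.246% and 0.394% in the other libraries. In WT 1, 21 of its cytosines stood at 10% or more, in WT 2 19 and in KO 1 16, and in the other 3 libraries 0. The tile inside Vcpkmt, a protein lysine methyltransferase gene (chromosome 12, 69582001 to 69583000, 47 cytosines), had 8.07% in KO 2, 9.37% in KO 3 and 9.48% in WT 3, and between 0.278% and 0.385% in the others, with 20 cytosines at 10% or more in each of the high libraries and 0 in the rest. The tile at a boundary of Mtus1 (chromosome 8, 41133001 to 41134000) had 9.21%, 6.39% and 6.23% in the same KO 2, KO 3 and WT 3. It had between 1.58% and 1.67% in the others. The start tile of Pdlim1, a cytoskeletal adaptor gene, had 3.58% in KO 1 and 0.254% and 0.473% in the other KO libraries, against 2.13%, 2.30% and 1.79% in WT. The choice of these tiles followed from their values, and whether they reflect the animals or the libraries was not tested.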
